A study of Mus musculus with 9 samples.

Results

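10 genes of fibroblast growth factor (FGF) signalling were followed through tumour development in the mouse submandibular salivary gland. They were the ligands Fgf1, Fgf7 and Fgf10, the receptors Fgfr1, Fgfr2 and Fgfr3, the feedback inhibitors Spry1 and Spry2, and the transcription factors Etv4 and Etv5. Members were found as the probes that the platform annotation assigns to these 10 symbols. It assigned 18 of 45281 probes to 9 of the members, among 19057 genes with a named probe, and no probe was named for Spry1. A probe was tested if its log2 intensity exceeded 6.34, the background level of the arrays, on at least 3 of 9 arrays, which 15 of the 18 did, and 8 members were tested. Spry2, with 1 probe above that level on 2 arrays, was not.

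All mice carried the Smgb-Tag transgene, in which regulatory sequence of the salivary secretory gene Smgb drives the SV40 large T antigen. This viral protein transforms cells by binding the tumour suppressors RB and p53. The labels named 3 glands as normal, 3 as dysplastic and 3 as adenocarcinoma, so normal glands carried the transgene too, and no gland without it was analysed here. Neither age nor the number of mice behind the 3 glands of a stage is given in the labels. The p-values therefore reflect only the variation among these samples, part of which may be technical. Total RNA of each gland was hybridised to 1 Illumina BeadChip array, and the values are log2 of the intensities normalised by the authors. With 3 arrays per stage, the number of arrays limits the precision.

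FGF signalling runs between the 2 tissues of a branching gland. In the embryonic mouse salivary gland the mesenchyme secretes Fgf7 and Fgf10, and the epithelium carries the IIIb form of Fgfr2, which binds both. The activated receptor signals through RAS and ERK, and ERK induces the ETS factors Etv4 and Etv5 together with Sprouty and dual-specificity phosphatase genes, which dampen the signal. Mice that lack Fgf10 or Fgfr2 IIIb fail to form normal salivary glands.

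Promoter windows are shown for 4 members on which the results turn: the receptor Fgfr2, its ligands Fgf7 and Fgf10, and the ERK-responsive factor Etv5. Each window holds the 250 bases before a RefSeq transcription start in the GRCm38.p6 build, printed 5′ to 3′ on the gene's strand. Capitals mark GGAA on either strand, the core that ETS factors such as Etv4 and Etv5 recognise.
Fgfr2, chr7:130266809-130267058, minus strand: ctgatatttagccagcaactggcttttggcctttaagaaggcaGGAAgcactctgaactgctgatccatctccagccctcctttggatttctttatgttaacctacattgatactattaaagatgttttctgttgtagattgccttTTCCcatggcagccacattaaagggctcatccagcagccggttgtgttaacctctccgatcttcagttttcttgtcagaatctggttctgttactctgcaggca
Fgf7, chr2:126034408-126034657, plus strand: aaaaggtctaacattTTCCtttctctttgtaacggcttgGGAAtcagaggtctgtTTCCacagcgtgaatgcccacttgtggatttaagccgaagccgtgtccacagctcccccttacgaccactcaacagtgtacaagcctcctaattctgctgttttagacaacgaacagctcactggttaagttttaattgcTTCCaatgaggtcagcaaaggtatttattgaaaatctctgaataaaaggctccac
Fgf10, chr13:118714449-118714698, plus strand: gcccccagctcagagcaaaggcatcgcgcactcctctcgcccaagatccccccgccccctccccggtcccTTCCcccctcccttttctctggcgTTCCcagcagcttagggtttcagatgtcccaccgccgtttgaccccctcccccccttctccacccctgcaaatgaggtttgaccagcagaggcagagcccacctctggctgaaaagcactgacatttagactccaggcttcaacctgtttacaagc
Etv5, chr16:22438369-22438618, minus strand: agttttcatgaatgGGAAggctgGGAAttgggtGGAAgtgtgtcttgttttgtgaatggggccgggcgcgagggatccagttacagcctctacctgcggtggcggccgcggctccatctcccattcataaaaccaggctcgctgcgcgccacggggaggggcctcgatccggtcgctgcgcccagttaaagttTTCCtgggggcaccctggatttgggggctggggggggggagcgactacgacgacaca
The Fgf7 and Etv5 windows each held 4 matches, and the Fgfr2 and Fgf10 windows 2 each. A match was present in 93.4% of 32851 promoter windows of this length, with a median of 3 per window, so these counts are near those of any gene. The longer motif CGGAAG was found on either strand in 13.6% of all windows and in 0 of the 9 windows available for 7 members. The longer motif contains the shorter one. A second start of Etv5 had 0 matches to GGAA and a G and C content of 71.2%, against 44% for the Fgfr2 window.

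One array, labelled normal 3, differed from both other arrays of its stage. Over the 12714 genes tested, normal 1 and normal 2 correlated at r = 0.992. Normal 3 correlated with them at 0.868 to 0.877 and with the dysplasia and adenocarcinoma arrays at 0.895 to 0.972, while normal 1 and 2 reached at most 0.912 with any other array. Genes of cell division summed to intensities of 762, 1496 and 21462 on normal 1, 2 and 3, to between 15384 and 28598 in dysplasia and to between 16577 and 27000 in adenocarcinoma (4 of 6 listed genes measured). The array is called by its label, and the comparisons with normal glands that rest on it are given with and without it. Leaving it out was decided with its values known and leaves 2 nearly equal normal arrays, so p-values without it are too favourable. Of the 8 epithelial markers, Krt7, Krt8, Krt14, Krt18 and Cdh1 were above background on all 9 arrays. Krt19 lay below background on 1 array, Epcam on 2 and Krt5 on 6.

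Across all 9 arrays, no member passed an adjusted p of 0.05 in any comparison (limma with Benjamini-Hochberg adjustment over 12714 genes), nor did any other gene, so the background of calls was 0%. In dysplasia against normal, 4 of 8 tested members had an unadjusted p under 0.05, compared with 22.2% of all genes: Etv4 and Etv5 were higher and Fgf7 and Fgf10 lower. In adenocarcinoma against normal, Fgf10 was the 1 such member of 8, and the background was 15.9%. In adenocarcinoma against dysplasia there were 0 of 8, with a background of 4.22%. Without normal 3, the 4 members named for dysplasia passed the adjusted threshold. That is 2 of 8 higher, with 12.5% of all genes called higher, and 2 of 8 lower, with 11.3% called lower, or 23.7% in either direction. In adenocarcinoma without normal 3, Etv4 was called higher (background 7.59%) and Fgf10 lower (background 7.86%), 2 of 8 members against 15.4% of genes. The median log2 fold change of the 8 members in dysplasia was 0.73, against 0.04 over all genes, and in adenocarcinoma -0.05, against 0.01. Without normal 3 the medians were 1.16 in dysplasia, against 0.05 over all genes, and 0.46 in adenocarcinoma, against 0.02, so the sign in adenocarcinoma turned.

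**Figure D1:**
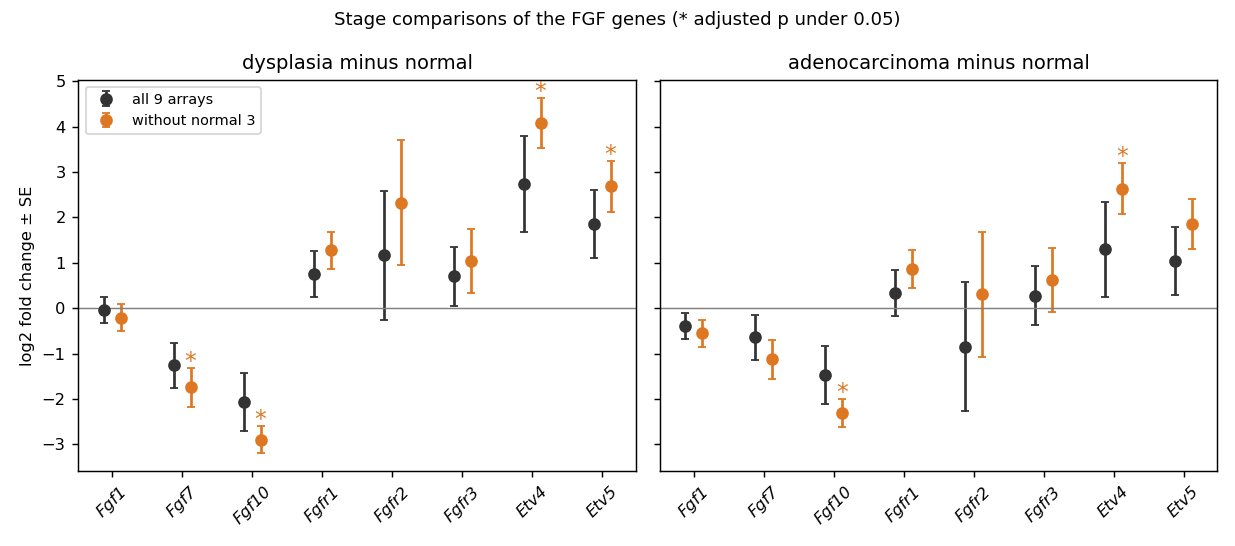
Log2 fold changes (points) with their moderated standard errors (bars) for the 8 tested members, in dysplasia minus normal and adenocarcinoma minus normal, on all 9 arrays (black) and without normal 3 (orange). Stars mark an adjusted p under 0.05, which Etv4, Etv5, Fgf7 and Fgf10 reach in dysplasia and Etv4 and Fgf10 in adenocarcinoma, in each case without normal 3 only.

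Fgf10, the main mesenchymal ligand of salivary branching, was the member whose dysplastic and normal glands did not overlap. Its log2 intensity was 9.16, 9.29 and 6.74 on normal 1, 2 and 3, then 6.30, 6.38 and 6.30 on dysplasia 1, 2 and 3, and 7.54, 6.42 and 6.77 on adenocarcinoma 1, 2 and 3. It was thus well above background on normal 1 and 2 and on adenocarcinoma 1, and at or near background on every dysplasia array. The other bright probe gave 9.30, 9.51 and 6.54 in normal glands, 6.01, 6.42 and 6.30 in dysplasia and 7.62, 6.13 and 6.65 in adenocarcinoma, and the 2 probes correlated at r = 0.996 over the 9 arrays. A further Fgf10 probe was above background on 1 array. Groups did not overlap for Fgf10, the 1 of 8 members lower in dysplasia without overlap, where 10.5% of all genes were lower and 22.8% separated in either direction (12.3% higher, with 0 of 8 members).

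Fgf10 averaged 6.33 ± 0.045 in dysplasia and 8.39 ± 1.44 in normal glands (SD, n = 3 each), a log2 fold change of -2.07 ± 0.64 (SE, limma adjusted p = 0.17). In adenocarcinoma it averaged 6.91 ± 0.57, a change of -1.48 ± 0.64 against normal glands (adjusted p = 0.31). Without normal 3 it fell by 2.90 on the log2 scale in dysplasia (limma adjusted p = 0.0021), and in adenocarcinoma it fell by 2.31 (adjusted p = 0.0056). Because dysplastic glands were at background, these falls may be understated. In tissue RNA, fewer cells of a type and less RNA per cell cannot be told apart.

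Fgf7, keratinocyte growth factor, had a similar pattern. Log2 intensities were 8.34, 8.70 and 7.06 on the normal arrays, 6.29, 6.79 and 7.24 in dysplasia and 7.88, 6.63 and 7.67 in adenocarcinoma. Normal 1 and 2 were highest, and dysplasia 3 lay above normal 3, so the groups overlapped. The log2 fold change in dysplasia against normal was -1.26 ± 0.50 (adjusted p = 0.20), and without normal 3 Fgf7 fell by 1.74 (limma adjusted p = 0.026). In adenocarcinoma the change was -0.64 ± 0.50 (adjusted p = 0.53), and without normal 3 it was -1.13 ± 0.42 (adjusted p = 0.12).

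Markers of other cell types moved with both ligands. Adipocyte genes (5 of 7 measured) summed to between 1499 and 26648 in normal glands, 394 and 1096 in dysplasia, and 443 and 6132 in adenocarcinoma, with Plin1 below background on 6 arrays, Lep on 2 and Adipoq on 1. Lymphocyte genes (4 of 6 measured) summed to between 528 and 2486 in normal glands, 333 and 412 in dysplasia, and 393 and 1150 in adenocarcinoma, with Ptprc below background on 3 arrays and Cd79b on 1. The log2 intensity of Fgf10 correlated over the 9 arrays at r = 0.96 with the median of the adipocyte genes and at 0.97 with that of the lymphocyte genes. For Fgf7 both values were 0.95. Fibroblast and mesenchyme genes, all 9 measured and above background on every array, summed to between 7904 and 34145 in normal glands, 2023 and 15619 in dysplasia, and 5904 and 34246 in adenocarcinoma. The correlation with their median was 0.44 for Fgf10 and 0.75 for Fgf7. Adipocyte and lymphocyte genes were not alone in this: with the median of the cell division genes Fgf10 correlated at -0.95 and Fgf7 at -0.84. With that of the acinar genes the values were 0.79 and 0.84. These values describe 9 arrays that share the split of normal 1 and 2 from the rest, and the part of other cell types in the ligand levels was not tested.

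**Figure D2:**
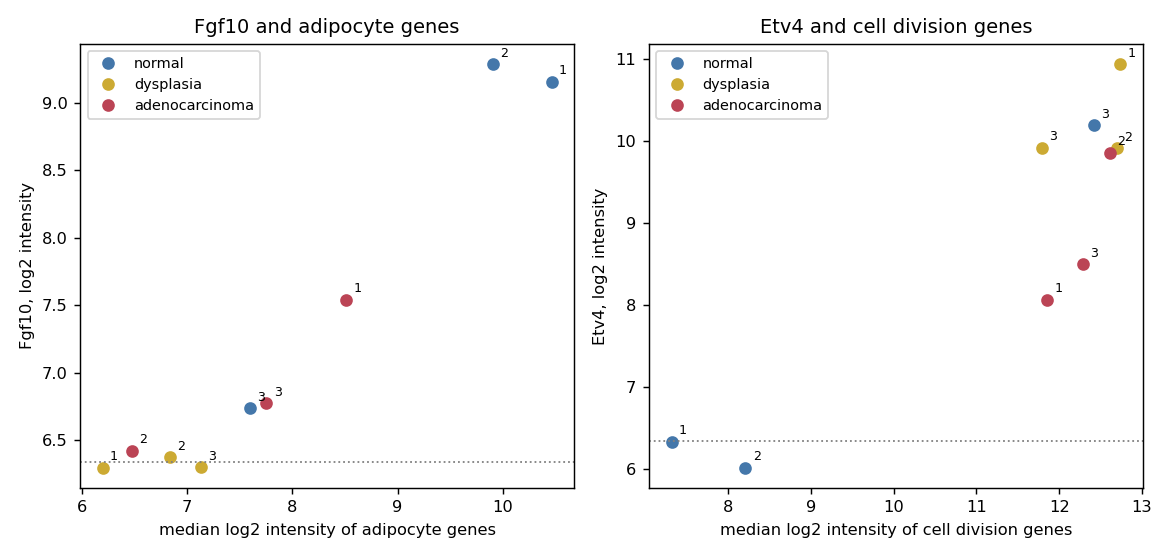
Left, log2 intensity of Fgf10 against the median log2 intensity of adipocyte genes on each array. Right, Etv4 against cell division genes. Points are coloured by stage and numbered by replicate, and dotted lines mark the background level of 6.34. Normal 1 and 2 lie at the high end for Fgf10 and at the low end for Etv4, with normal 3 among the lesions in both.

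Fgf1, a ligand that binds all FGF receptors, stayed within a narrow range. Its brighter probe read 10.30, 10.39 and 9.83 on the normal arrays, 9.59, 10.35 and 10.46 in dysplasia and 9.95, 9.43 and 9.98 in adenocarcinoma. The log2 fold change was -0.04 ± 0.29 in dysplasia against normal (adjusted p = 0.95; 95% interval -0.70 to 0.62) and -0.38 ± 0.29 in adenocarcinoma against normal (adjusted p = 0.51; 95% interval -1.04 to 0.27). Without normal 3 these were -0.21 ± 0.30 (adjusted p = 0.65) and -0.56 ± 0.30 (adjusted p = 0.26). The 2 Fgf1 probes correlated at only r = 0.40, and the dimmer one differed in sign in dysplasia, at 0.54 ± 0.32 (limma adjusted p = 0.35 with every probe tested). A change of direction between probes leaves no settled direction for Fgf1.

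**Figure D3:**
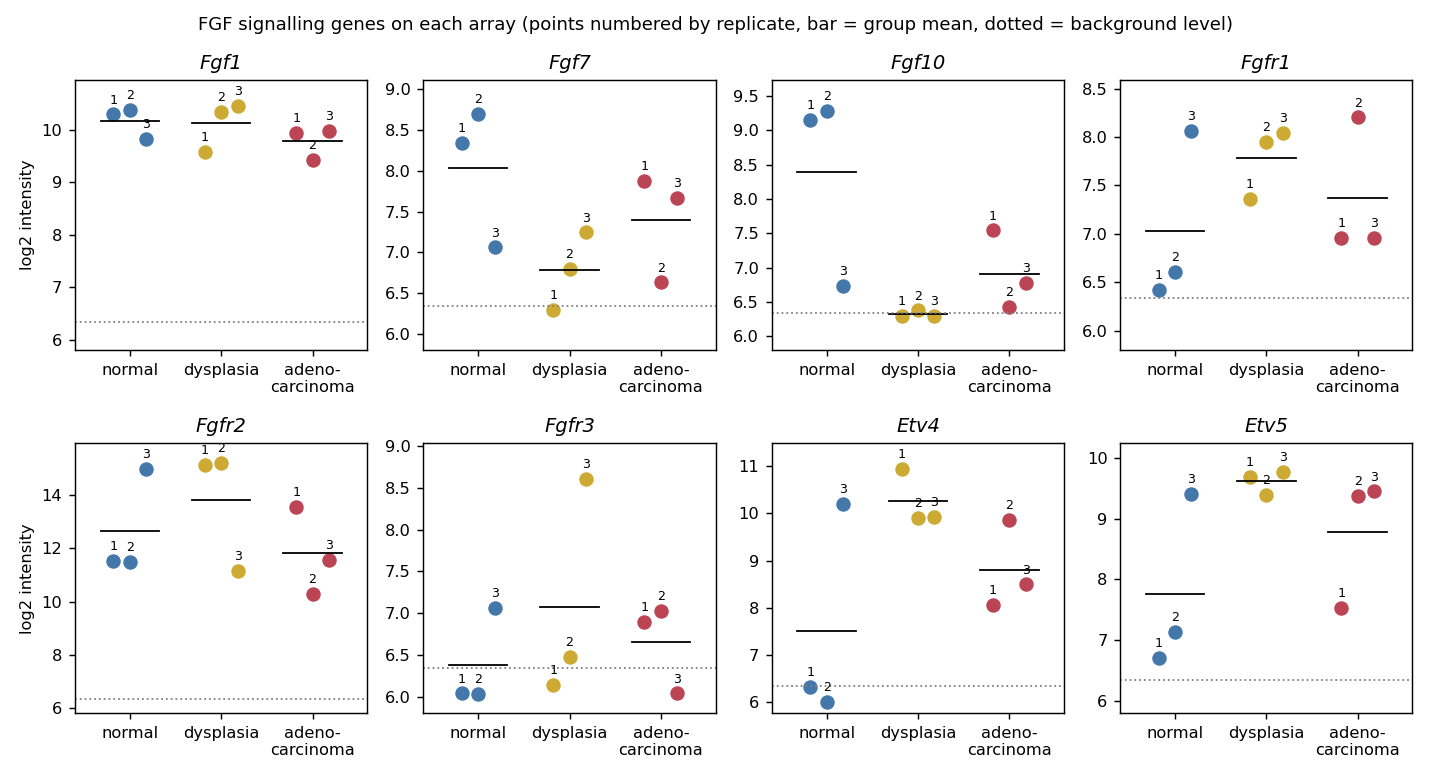
Log2 intensity of the 8 tested members on each of the 9 arrays, by stage. Points are numbered by replicate, horizontal bars are group means and dotted lines the background level of 6.34. Fgf10 and Fgf7 are highest on normal 1 and 2, Etv4 and Etv5 are lowest there, Fgfr2 is near 15 on normal 3 and dysplasia 1 and 2, and Fgfr3 is highest on dysplasia 3.

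Fgfr2, the epithelial receptor for Fgf7 and Fgf10, varied widely between arrays of the same stage. The brightest of its 4 probes (ILMN_1225071) read 11.54, 11.49 and 14.98 on normal 1, 2 and 3, then 15.14, 15.22 and 11.17 on dysplasia 1, 2 and 3, and 13.57, 10.31 and 11.58 on adenocarcinoma 1, 2 and 3. Normal 3, dysplasia 1 and dysplasia 2 were thus near the highest value on any array, 15.63, adenocarcinoma 1 was intermediate, and the other 5 arrays were lower. A probe of the same gene with room below that limit (ILMN_2609887) read 7.94, 7.61 and 13.80 in normal glands, 13.63, 13.87 and 7.28 in dysplasia and 9.24, 6.69 and 7.30 in adenocarcinoma. Dysplasia 2 exceeded adenocarcinoma 2 by 7.18 on the log2 scale there, or 145-fold.

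The dimmer pair of Fgfr2 probes gave the same 3 high arrays. ILMN_1229167 read 12.41, 11.96 and 11.92 on normal 3, dysplasia 1 and dysplasia 2, 8.61 on adenocarcinoma 1, and 6.23 to 6.76 on the others. ILMN_2646078 read 11.56, 10.47 and 11.23 on those 3 arrays, 7.11 on adenocarcinoma 1 and 6.19 to 6.68 on the others. Correlation with the brightest probe over the 9 arrays was 0.93 to 0.97. The 3 high arrays come from 2 stages, and dysplasia 3 had no elevated Fgfr2 on any probe.

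The stage means of Fgfr2 therefore had wide errors. Dysplasia averaged 13.84 ± 2.32 and normal glands 12.67 ± 2.00 (SD, n = 3 each), a log2 fold change of 1.17 ± 1.42 (SE, limma adjusted p = 0.65; 95% interval -2.10 to 4.44). Adenocarcinoma averaged 11.82 ± 1.64, a change of -0.85 ± 1.42 against normal (adjusted p = 0.79) and of -2.02 ± 1.42 against dysplasia (adjusted p = 0.89). On the 3 dimmer probes, which lie further from the highest values, the changes on all 9 arrays were larger, at -1.54 to -2.04 against normal and -2.90 to -3.85 against dysplasia, and none passed with every probe tested (lowest limma adjusted p = 0.66 and 0.89). In dysplasia against normal these probes gave 1.37 to 1.81 (lowest adjusted p = 0.64). ILMN_1229167 lay below background on adenocarcinoma 2 and 3, and ILMN_2646078 on normal 2 and adenocarcinoma 2. Background therefore limits the low values of both. Without normal 3 the brightest probe gave 2.33 ± 1.38 in dysplasia against normal (adjusted p = 0.26). The 3 dimmer probes gave 3.10 to 3.82 there (lowest limma adjusted p = 0.11 with every probe tested). In adenocarcinoma against normal the brightest probe without normal 3 changed sign to 0.30 ± 1.38 (adjusted p = 0.91). The 3 dimmer probes gave -0.03 to 0.33 (lowest adjusted p = 0.92), so no direction holds for this comparison.

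Neighbours of Fgfr2 on chromosome 7 were examined after its values were seen. Wdr11, the adjacent protein-coding gene on one side, encodes a WD-repeat protein and read 14.63 on dysplasia 1 and 9.85 on adenocarcinoma 1, against 7.28 to 7.90 on the other 7 arrays. It was thus elevated on 2 of the 4 arrays with raised Fgfr2 and at its usual level on normal 3 (7.28) and dysplasia 2 (7.42). Ate1, an arginyltransferase gene and the neighbour on the other side, read by its brightest probe 10.15 to 11.17 over all arrays, with the highest value on dysplasia 1 and the 2 lowest on normal 3 and dysplasia 2 (10.15 and 10.20). Further out, Mcmbp and Sec23ip varied by less than 1 on the log2 scale, and no probe of Plpp4 or Nsmce4a exceeded background. DNA copy number and gene structure were not analysed here.

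**Figure D4:**
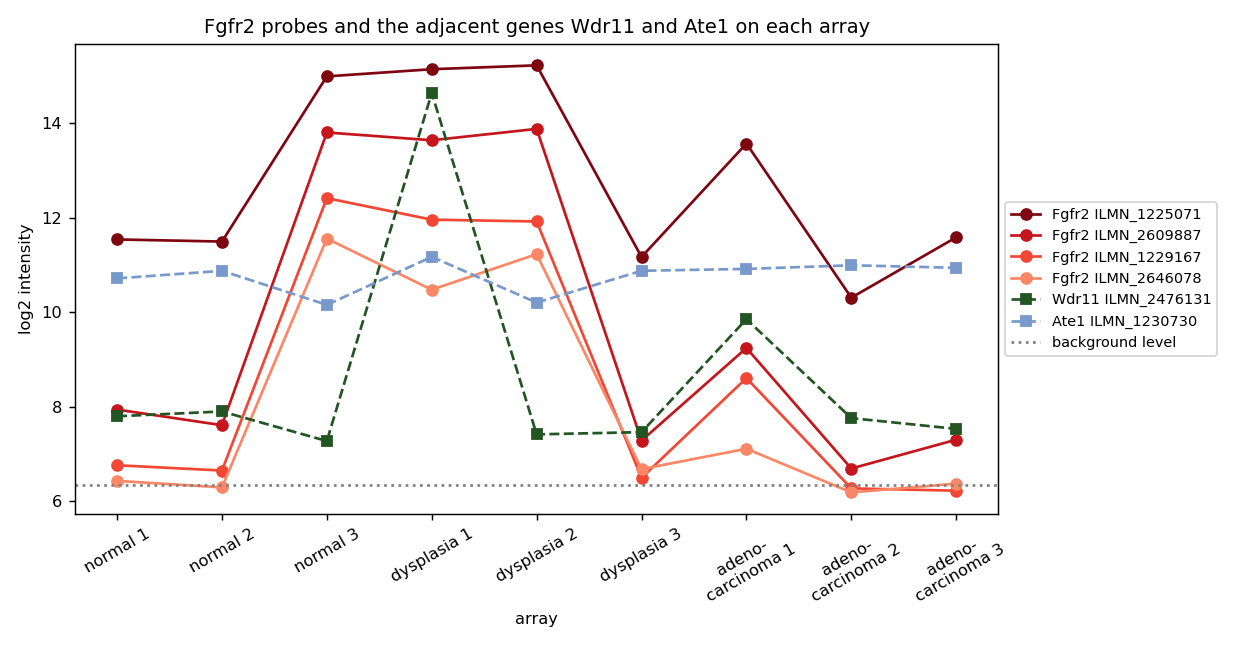
Log2 intensity of the 4 Fgfr2 probes (solid, darkest for the brightest probe) and of the adjacent genes Wdr11 and Ate1 (dashed) on each of the 9 arrays, with the background level of 6.34 dotted. All 4 Fgfr2 probes are high on normal 3, dysplasia 1 and dysplasia 2, and Wdr11 is high on dysplasia 1 and raised on adenocarcinoma 1.

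Fgfr1, the receptor more typical of mesenchyme, was lowest on normal 1 and 2. Its brighter probe read 6.42, 6.61 and 8.06 on the normal arrays, 7.36, 7.95 and 8.04 in dysplasia and 6.96, 8.20 and 6.96 in adenocarcinoma, all above background. The log2 fold change against normal was 0.76 ± 0.51 in dysplasia (limma adjusted p = 0.40) and 0.34 ± 0.51 in adenocarcinoma (adjusted p = 0.76). Without normal 3 these were 1.27 ± 0.41 (adjusted p = 0.064) and 0.86 ± 0.41 (adjusted p = 0.21), neither past the threshold. The dimmer Fgfr1 probe was above background on 3 arrays, and on neither normal 1 nor normal 2, so no fold is given for it. Without normal 3 that probe was called higher in dysplasia with every probe tested (limma adjusted p = 0.031), on values near background. The 2 probes correlated at r = 0.91.

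Fgfr3, a receptor known for restraining bone growth, was above background on 5 arrays by its brighter probe. Values were 6.04, 6.03 and 7.06 in normal glands, 6.14, 6.48 and 8.61 in dysplasia and 6.89, 7.03 and 6.04 in adenocarcinoma. Dysplasia 3 stood alone at the top, and the other Fgfr3 probe read 6.45 there and lay at or below background elsewhere. Of the macrophage genes (5 of 6 measured, none below background), Cd14 and Cd163 were also highest on dysplasia 3, at 14.44 and 9.94, whereas Adgre1, Csf1r and Mrc1 were highest on adenocarcinoma arrays. The summed intensity of the list was 5072 to 7190 in normal glands, 2132 to 26703 in dysplasia and 7187 to 10761 in adenocarcinoma. Fgfr3 correlated with the list's median at r = 0.19 over the 9 arrays, and the part of macrophages in its value was not tested. The log2 fold change in dysplasia against normal was 0.70 ± 0.65 (adjusted p = 0.54), and without normal 3 it was 1.04 ± 0.71 (adjusted p = 0.33). Normal 1, normal 2 and dysplasia 1 were below background, so no smallest difference can be given. With normal 3 kept and dysplasia 3 left out, the log2 fold change was -0.068, so that 1 array set the direction.

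Etv4, an ETS transcription factor of the PEA3 group, was higher on every lesion array than on normal 1 and 2. Log2 intensity was 6.33, 6.01 and 10.20 on normal 1, 2 and 3, then 10.94, 9.91 and 9.92 in dysplasia and 8.06, 9.86 and 8.49 in adenocarcinoma. Normal 1 and 2 were below background, whereas normal 3 lay within the range of dysplasia. Etv4 averaged 10.26 ± 0.59 in dysplasia and 7.51 ± 2.33 in normal glands (SD, n = 3 each), a log2 fold change of 2.74 ± 1.06 (SE, limma adjusted p = 0.19). In adenocarcinoma it averaged 8.81 ± 0.94, a change of 1.29 ± 1.06 (adjusted p = 0.55). Without normal 3, Etv4 rose at least 15.1-fold in dysplasia (limma adjusted p = 0.0040) and at least 5.52-fold in adenocarcinoma (adjusted p = 0.022), with the background level in place of the normal values.

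Etv5, the close relative of Etv4, behaved alike on most arrays. Its brighter probe read 6.71, 7.14 and 9.41 on the normal arrays, 9.68, 9.39 and 9.77 in dysplasia and 7.54, 9.37 and 9.45 in adenocarcinoma. The dysplasia arrays lay within 0.4 of each other, and adenocarcinoma 1 was the lesion closest to normal 1 and 2. The log2 fold change was 1.86 ± 0.75 in dysplasia against normal (adjusted p = 0.20) and 1.03 ± 0.75 in adenocarcinoma (adjusted p = 0.50). Without normal 3, Etv5 rose by 2.68 ± 0.56 in dysplasia (limma adjusted p = 0.015). The adenocarcinoma value without normal 3 was 1.86 ± 0.56 (adjusted p = 0.065). The second Etv5 probe correlated with the first at r = 0.98.

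The feedback inhibitor Spry2, which restrains RAS-ERK signalling, stayed near background. Its log2 intensity was 6.36, 5.91 and 5.95 in normal glands, 6.51, 6.15 and 6.20 in dysplasia and 6.05, 6.26 and 6.08 in adenocarcinoma. The groups overlapped, and no level can be read from values this low. Spry1 was not analysed here.

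Etv4 was also high on arrays with low Fgfr2. Dysplasia 3, where Fgfr2 was low, had Etv4 at 9.92, next to 9.91 on dysplasia 2, where Fgfr2 was high. Adenocarcinoma 2 had the lowest Fgfr2 of all arrays and an Etv4 of 9.86. Over the 9 arrays Etv4 correlated with Etv5 at r = 0.92, with Fgf10 at -0.95 and with Fgfr2 at 0.47. Its correlation with the median of the cell division genes was 0.89 (0.87 for Etv5). With the medians of the lymphocyte and adipocyte genes Etv4 correlated at -0.97 and -0.95, and Etv5 at -0.96 and -0.93. The part of these cell types and of cell division in the Etv levels was not tested.

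Adenocarcinoma and dysplasia differed in 2 of 8 members without overlap, where 10.6% of all genes separated. Etv4 was lower on every adenocarcinoma array than on any dysplasia array (6.55% of genes were lower), by a log2 fold change of -1.45 ± 1.06 (limma adjusted p = 0.89; 95% interval -3.89 to 0.99). Its closest values, 9.86 on adenocarcinoma 2 and 9.91 on dysplasia 2, nearly touched. Fgf10 was higher on every adenocarcinoma array (4.03% of genes were higher), by 0.59 ± 0.64 (adjusted p = 0.89). The closest Fgf10 values, 6.42 on adenocarcinoma 2 and 6.38 on dysplasia 2, lay near background, and the groups overlapped on the other bright Fgf10 probe, where adenocarcinoma 2 read 6.13. Neither difference passed the test. Against normal glands, 0 of 8 members separated in adenocarcinoma, where 20.2% of genes did, 10.4% higher and 9.76% lower.

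Other genes of the pathway were read from 7 lists of 103 genes, of which 71 were tested. Across all 9 arrays none passed in limma in any comparison, and 15, 10 and 4 had an unadjusted p under 0.05 in dysplasia against normal, adenocarcinoma against normal and adenocarcinoma against dysplasia, where 22.2%, 15.9% and 4.22% of all genes did. Without normal 3, 11 of 71 rose and 4 fell in dysplasia, where 12.5% of all genes were called higher and 11.3% lower. In adenocarcinoma 5 of 71 rose and 3 fell, where 7.59% were called higher and 7.86% lower. Counts called higher or with a small unadjusted p were near these backgrounds, and the genes below are given as single values. The median log2 fold change on all 9 arrays was 0.26 in dysplasia and 0.18 in adenocarcinoma.

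Feedback inhibitors (10 of 13 tested) were the list nearest to the Sprouty genes. Dusp6, the phosphatase that dephosphorylates ERK, read 12.55, 12.57 and 13.86 in normal glands, 14.79, 15.01 and 15.08 in dysplasia, and 13.65, 14.89 and 13.01 in adenocarcinoma. Its dysplastic and normal glands did not overlap. Its log2 fold change in dysplasia was 1.97 ± 0.51 on all 9 arrays (adjusted p = 0.16), and without normal 3 it rose by 2.40 (limma adjusted p = 0.014). Spred1, a Sprouty-related inhibitor of RAS signalling, rose without normal 3 in dysplasia (1.36 ± 0.27, adjusted p = 0.014) and in adenocarcinoma (1.29 ± 0.27, adjusted p = 0.023). On all 9 arrays the Spred1 changes were 0.86 ± 0.42 (adjusted p = 0.26) and 0.79 ± 0.42 (adjusted p = 0.38). Il17rd, an FGF antagonist also called Sef, had a log2 fold change of 1.48 ± 0.47 in dysplasia on all 9 arrays (adjusted p = 0.17), and Dusp4 one of 1.46 ± 0.67 (adjusted p = 0.24). Without normal 3 these were 1.55 ± 0.55 (adjusted p = 0.083) and 1.80 ± 0.74 (adjusted p = 0.12). A second Il17rd probe, also above background on all 9 arrays, differed less, averaging 6.95 in dysplasia and 6.72 in normal glands. Its groups overlapped, with 6.72 on dysplasia 2 and 6.81 on normal 3.

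Among other ligands, 6 of 19 were tested. Fgf22, a ligand known from synapse formation, rose by 1.95 ± 0.35 in dysplasia without normal 3 (limma adjusted p = 0.010), and on all 9 arrays its change was 1.43 ± 0.47 (adjusted p = 0.17). Fgf13, an intracellular FGF homologue that binds sodium channels, read 9.92, 10.82 and 10.76 in dysplasia, against 7.22, 6.90 and 8.18 in normal glands. The log2 fold change was 3.07 ± 0.93 on all 9 arrays (adjusted p = 0.16) and 3.44 ± 1.06 without normal 3 (adjusted p = 0.055). Fgf9, an epithelial ligand in many embryonic organs, had a log2 fold change of -0.70 ± 0.43 in dysplasia (adjusted p = 0.36) and Fgf21 one of 0.31 ± 0.19 (adjusted p = 0.35). Without normal 3 these were -1.11 ± 0.37 (adjusted p = 0.070) and 0.23 ± 0.20 (adjusted p = 0.46).

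The co-receptor Klb, beta-Klotho, was 1 of 4 tested receptors, co-receptors and binding proteins and was below background on every dysplasia array. It fell at least 2.72-fold in dysplasia without normal 3 (limma adjusted p = 0.0012). On all 9 arrays its log2 fold change was -1.28 ± 0.37, which did not pass (adjusted p = 0.16), and normal 3 was itself just below background. In adenocarcinoma Klb read 6.35, 6.11 and 6.16, with 1 of 3 arrays just above background, against 7.87, 7.70 and 6.33 in normal glands. The fall there passed without normal 3 (adjusted p = 0.0019) but not on all 9 arrays (adjusted p = 0.26). Adipocyte genes, given above, had summed intensities in dysplasia below those of all 3 normal glands, and their part in the Klb values was not tested. Fgfrl1, a receptor that lacks the kinase domain, had a log2 fold change of -1.22 ± 0.36 in adenocarcinoma against dysplasia (adjusted p = 0.89). Fgfbp3 and Fgfbp1, secreted FGF carriers, had changes of 0.70 ± 0.33 (adjusted p = 0.24) and 0.18 ± 0.96 (adjusted p = 0.93) in dysplasia against normal, and of 0.90 ± 0.34 (adjusted p = 0.10) and 0.28 ± 1.14 (adjusted p = 0.88) without normal 3.

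Of 10 tested docking and RAS-ERK genes, 2 rose in dysplasia without normal 3, where 12.5% of all genes did. These were Nras (0.92 ± 0.25, limma adjusted p = 0.037), a RAS GTPase, and Map2k1 (0.56 ± 0.15, adjusted p = 0.033), which encodes the kinase MEK1. The Map2k1 change on all 9 arrays was 0.52 ± 0.14 (adjusted p = 0.16). Nras was at 12.48, 12.27 and 13.11 in dysplasia, against 11.70, 11.70 and 11.64 in normal glands, so normal 3 did not depart from normal 1 and 2 for this gene. The Nras change on all 9 arrays was 0.94 ± 0.22 (adjusted p = 0.15). In adenocarcinoma against normal, Nras changed by 0.82 ± 0.22 (limma adjusted p = 0.22) and Map2k1 by 0.40 ± 0.14 (adjusted p = 0.27) on all 9 arrays. Leaving out normal 3 gave 0.79 ± 0.25 (adjusted p = 0.073) and 0.44 ± 0.15 (adjusted p = 0.087) there, neither past the threshold.

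Of 9 tested ERK-responsive genes, Fos, the immediate early transcription factor, rose in both lesions without normal 3, by 2.00 ± 0.46 in dysplasia (limma adjusted p = 0.021) and 2.29 ± 0.46 in adenocarcinoma (adjusted p = 0.019). Phlda1 fell by 3.78 in dysplasia (adjusted p = 0.014), the opposite direction within this list. On all 9 arrays Fos changed by 1.54 ± 0.51 in dysplasia (adjusted p = 0.17) and 1.82 ± 0.51 in adenocarcinoma (adjusted p = 0.22), and Phlda1 by -2.82 ± 0.93 in dysplasia (adjusted p = 0.17), none past the threshold. Etv1, the other PEA3-group factor, had a log2 fold change of -0.44 ± 0.49 in dysplasia on all 9 arrays (adjusted p = 0.61), and Egr1 one of 1.02 ± 0.63 (adjusted p = 0.36). Without normal 3 these were -0.80 ± 0.48 (adjusted p = 0.27) and 1.41 ± 0.66 (adjusted p = 0.17). In adenocarcinoma against normal, Etv1 changed by -1.25 ± 0.49 on all 9 arrays (limma adjusted p = 0.29) and Egr1 by 1.83 ± 0.63 (adjusted p = 0.27). Leaving out normal 3 gave -1.61 ± 0.48 (adjusted p = 0.065) and 2.22 ± 0.66 (adjusted p = 0.065) there, neither past the threshold.

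Heparan sulfate chains present FGFs to their receptors, and 21 of 22 listed genes were tested, of which 4 rose and 1 fell in dysplasia without normal 3 (12.5% and 11.3% of all genes). Without normal 3, Gpc1, Sdc1, Hs2st1 and Ext2 rose in dysplasia, by 3.34, 2.07, 1.47 and 0.88 on the log2 scale (limma adjusted p = 0.0072, 0.013, 0.015 and 0.014). They encode 2 proteoglycan core proteins, a 2-O-sulfotransferase and a chain polymerase. Gpc1 read 12.86, 12.79 and 13.34 in dysplasia, against 9.43, 9.89 and 12.61 in normal glands. Glce, the epimerase of the chain, fell by 0.72 in dysplasia (adjusted p = 0.037). On all 9 arrays the dysplasia values were 2.35 for Gpc1, 1.40 for Sdc1, 1.15 for Hs2st1, 0.67 for Ext2 and -0.35 for Glce (adjusted p between 0.16 and 0.52). Gpc1, Sdc1 and Ext2 rose and Glce fell in adenocarcinoma as well without normal 3. These were 3 and 1 of 21 genes, where 7.59% and 7.86% of all genes were called higher and lower. On all 9 arrays 0 of the 21 passed in adenocarcinoma. Ext2 changed there by 0.60 ± 0.22 (limma adjusted p = 0.28) and Glce by -0.36 ± 0.31 (adjusted p = 0.58).

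Among 11 tested growth factor genes of salivary branching, Kitl and Sox10 passed without normal 3. In dysplasia 1 rose and 1 fell, where 12.5% and 11.3% of all genes did. In adenocarcinoma 0 rose and 1 fell, where 7.59% and 7.86% did. Kitl, the ligand of the KIT receptor, rose by 1.95 ± 0.39 in dysplasia (limma adjusted p = 0.014), and on all 9 arrays its change was 1.78 ± 0.35 (adjusted p = 0.14). Sox10, a transcription factor of salivary acinar progenitors and of nerve glia, fell by 5.30 in dysplasia (adjusted p = 0.0028), and in adenocarcinoma it fell by 3.58 (adjusted p = 0.013). On all 9 arrays the Sox10 changes were -4.01 ± 1.06 (adjusted p = 0.16) and -2.29 ± 1.06 (adjusted p = 0.33). Its log2 intensity was 6.20, 6.80 and 6.36 in dysplasia, against 11.52, 11.98 and 7.88 in normal glands. Acinar genes (8 of 8 measured, with Lpo below background on 1 array) summed to between 21859 and 34952 in dysplasia and between 139424 and 243666 in normal glands, and their part in the Sox10 values was not tested. On all 9 arrays Kit, the receptor of Kitl, had a log2 fold change of 1.72 ± 0.75 in dysplasia (adjusted p = 0.23), and without normal 3 one of 1.70 ± 0.89 (adjusted p = 0.21).

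The genes most like each member over the 9 arrays, by Pearson correlation of log2 intensity, are given as a description. For Fgf10 these were Serpinb1a, Azgp1 and Cyp2s1 (r = 0.994 to 0.995). Fgf7 was closest to Ikzf1, a lymphoid transcription factor, at 0.995, followed by Arhgap9 and Lrmp, genes of blood cells. Etv4 was closest to Nvl, Zfp688 and Trip13 (0.985 to 0.989), and Etv5 to Prr12, Top3b and Raly (0.966 to 0.979). Fgfr1 was closest to Mkln1, Dnajc16 and Shq1 (0.971 to 0.979). Fgfr3 was closest to 2 genes with clone names, 2310011E23Rik and E230025N22Rik, and to Cd14, the monocyte co-receptor for lipopolysaccharide (0.975). Fgf1 reached 0.941 with Ptprr, followed by Slc44a5 and Rabgef1. Fgfr2 reached 0.922 with Exo1, followed by Aldh7a1 and Gm12250. Exo1 and Aldh7a1 themselves varied by 0.48 and 0.32 on the log2 scale over the 9 arrays, near background. So did Ptprr and Slc44a5, by 0.49 and 0.30. The 50th most similar gene still had r = 0.982 for Fgf10 and 0.955 for Etv4, against 0.795 for Fgfr2, so many genes shared the first pair of patterns with the same split of arrays.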

How the data were processed

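The authors deposited linear intensity values of Illumina BeadChip arrays, 1 per gland. Their sorted columns differed by at most 0.0992%, as quantile normalisation leaves them. Per the submitters' processing notes limma was used, version unstated. The scanner program and any background subtraction are not stated either. A second deposited table has 18 columns whose names match no sample label, and these were not used.

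The deposited intensities were converted to log2. The background level was 81.1 (6.34 on the log2 scale), the 95th percentile of a normal distribution centred on the most frequent intensity, 66.6, with the spread of the values below it. Genes were represented by their brightest probe above it on at least 3 arrays. Of 45281 probes, 34885 had 1 gene symbol, 18 several and 10378 none, per the platform annotation, and 34807 matched RefSeq (GRCm38.p6) by Entrez ID. All 9 arrays were fitted with limma 3.58.1 in R 4.3.3 (lmFit and eBayes, 6 residual degrees of freedom), with Benjamini-Hochberg adjustment over 12714 genes. The scripts were tested on simulated data.

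The text names every member, up to 4 genes of each other list with the smallest p or those past the threshold, and the 3 genes most correlated with each member. Members and lists were chosen with earlier results of these data known. Alternatives covered the pseudocount, filter, probe summary, background correction, normalisation, arrays fitted, array weights, replicate block and each array left out. With 3 arrays a stage, permutation has too few arrangements to reach 0.05 and was not used.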

Additional observations from a re-analysis of the deposited data

How the results depend on the processing

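The normal 3 array decided most calls. Without 1 array at a time, 0 to 4 members, 0 to 3017 genes and 0 to 15 other pathway genes were called in dysplasia against normal. In adenocarcinoma against normal these were 0 to 2 members, 0 to 1964 genes and 0 to 8 pathway genes, and in adenocarcinoma against dysplasia 0 to 1 genes. Every upper end against normal came without normal 3. limma's array weights, which gave normal 3 a weight of 0.169 and dysplasia 2 one of 6.43, called 6 members, 7786 genes and 42 pathway genes in dysplasia, 3 members, 4489 genes and 23 pathway genes in adenocarcinoma, and 4 genes in adenocarcinoma against dysplasia. Without a background filter, 1 gene was called in dysplasia and 6 in adenocarcinoma. The probe-level fit and cyclic loess each called 1 gene in adenocarcinoma.

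Some fold changes that had not passed changed sign, in every case without passing. Fgf1 in dysplasia was 0.25 as the mean over probes, and without 1 array at a time it ran from -0.21 to 0.23, above 0 without normal 1 (0.022), normal 2 (0.065) or dysplasia 1 (0.23). Fgfr2 in adenocarcinoma against normal was 0.89 with array weights, and without 1 array at a time it ran from -1.73 to 0.30, the upper end without normal 3. Fgfr3 in adenocarcinoma against dysplasia was 0.24 with array weights and ran from -0.89 to 0.35 without 1 array, and in dysplasia against normal from -0.068 to 1.17, with the sign changed without dysplasia 3 in both. Fgfr1 in adenocarcinoma against normal ran from -0.071 without adenocarcinoma 2 to 0.86 without normal 3. The cause was not tested.

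With replicate number as a block, 0 members, 0 genes and 0 other pathway genes were called in each comparison. The numbers share no stated origin, and deviations of same-numbered arrays 1, 2 and 3 correlated at -0.164, -0.0811 and -0.194 between normal and dysplasia, at 0.239, -0.463 and -0.229 between normal and adenocarcinoma, and at -0.205, 0.0933 and 0.167 between dysplasia and adenocarcinoma, so not every pair exceeded 0.1 in any comparison. Signals near background, as for Fgfr3, Spry2 and Fgf10 in dysplasia, limit the measurement.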
